A study of Mus musculus with 2 samples.

Results

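Prostaglandins are local lipid signals, and 9 genes that make, carry, degrade or sense them are described here across the cells of mouse liver. The genes were chosen by symbol and are Ptgs1, Ptgs2, Ptgis, Ptges, Ptgds, Hpgds, Slco2a1, Hpgd and Ptger4, 9 of the 31053 genes in the count tables, and all 9 were found. Their choice was made with earlier results of the same data known, so the levels and ratios below are descriptions and carry no test. The pIVCL library came from the liver of C57BL/6 mice 6 weeks after partial inferior vena cava ligation, an operation begun at 8 to 10 weeks of age that narrows the large vein above the liver and raises portal pressure. The Control library came from C57BL/6 liver titled healthy. The growth protocol printed with the Control sample also describes the ligation, so its group was taken from its genotype label and title. Whether Control animals had a sham operation is not known here. Each group was 1 droplet library of mixed liver cells, hepatocytes and non-parenchymal cells prepared by collagenase perfusion, and how many animals were pooled is likewise not known here. Differences therefore compare 2 libraries and have no replicate check.

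Cyclooxygenases turn arachidonic acid into an unstable intermediate, and terminal synthases turn that intermediate into prostacyclin, prostaglandin E2 or prostaglandin D2. A carrier then takes prostaglandins up from the surroundings, a dehydrogenase inactivates them inside the cell, and receptors on neighbouring cells read what remains. In the liver, prostaglandins and prostacyclin act on the tone of the sinusoids, the capillaries lined by liver sinusoidal endothelial cells (LSECs), and Kupffer cells, the resident macrophages, are a known source.

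After filtering, 5443 pIVCL and 2721 Control cells remained, and their median depth was 2005 UMIs in pIVCL and 5262 in Control (a UMI marks 1 captured RNA molecule). The 2 libraries shared 13 barcodes, 9 of them among kept cells. Clusters were named from marker genes, and the 9 genes were left out of clustering. In all, 6 kinds of cell had at least 50 cells in each library and were compared: LSEC-like (557 pIVCL and 963 Control cells), Kupffer cell-like (776 and 322), hepatic stellate cell-like (86 and 183), hepatocyte-like (1384 and 387), T cell-like (321 and 190) and B cell-like (1040 and 133). Different clusters held most of the LSEC-like cells of each library: 457 of the 557 pIVCL cells lay in a cluster led by Esm1, Lyve1 and Cxcl9 that held 16 Control cells, and 732 of the 963 Control cells in a cluster led by Dnase1l3 and Clec4g that held 7 pIVCL cells. All 11 LSEC markers were detected in both libraries. For each kind of cell and library the UMIs of all its cells were added up and scaled to CPM. Levels and ratios carry exact 95% intervals that cover counting error only.

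The promoters of Slco2a1 and Hpgd are shown because these genes had the lowest pIVCL over Control ratios among the 9 in LSEC-like cells, and that of Ptgs1 because its ratio was nearer 1. Each is the 250 bases before the RefSeq start (GRCm38.p6, plus strand), with the core promoter letters TATAAA and the Sp factor letters GGGCGG, both read on either strand, in capitals. They lie at chr9:103008237-103008486, chr8:56294302-56294551 and chr2:36230176-36230425.
Slco2a1: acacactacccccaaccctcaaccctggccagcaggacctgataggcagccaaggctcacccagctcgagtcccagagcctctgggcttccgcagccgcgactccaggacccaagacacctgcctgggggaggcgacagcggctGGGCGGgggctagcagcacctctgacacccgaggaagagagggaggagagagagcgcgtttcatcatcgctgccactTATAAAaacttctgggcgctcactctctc
Hpgd: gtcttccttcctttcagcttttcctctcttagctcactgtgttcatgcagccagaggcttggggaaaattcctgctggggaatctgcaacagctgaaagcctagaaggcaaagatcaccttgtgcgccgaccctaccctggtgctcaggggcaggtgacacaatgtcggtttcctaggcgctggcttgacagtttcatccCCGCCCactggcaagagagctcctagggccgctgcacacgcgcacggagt
Ptgs1: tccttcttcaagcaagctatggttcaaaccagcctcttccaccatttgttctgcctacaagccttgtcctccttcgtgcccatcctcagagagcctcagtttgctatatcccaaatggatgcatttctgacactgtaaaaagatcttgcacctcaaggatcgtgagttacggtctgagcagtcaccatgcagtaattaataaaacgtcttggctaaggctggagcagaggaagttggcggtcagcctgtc
Of the 9 genes, 8 had a RefSeq promoter and Ptgis had none in the table. In the 250-base windows TATAAA occurred in 1 of the 8, Slco2a1, at 29 bases before the start, and in 12.97% of 27025 promoters. The search was widened to 300 bases, 50 of them after the start, once a match in Hpgd was seen just outside the first window. There TATAAA occurred in 2 of 8 genes, with the Hpgd match 5 bases after the RefSeq start, and in 14.2% of promoters. The gene span given below for Hpgd starts 33 bases after that RefSeq start, so this match lies before the span. GGGCGG occurred in 5 of 8 genes under both windows, against 32.9% and 35.9% of promoters. The CRE core letters TGACG occurred in 0 of 8 genes within 250 bases (17.9% of promoters) and in 1 within 300 (21.0%). The E-box letters CACGTG occurred in 0 (6.05%) and 1 (7.24%), and the GATA factor letters GATAA in 0 (23.0%) and 0 (25.8%). The letters CACCC occurred in 4 (51.3%) and 6 (56.7%). Matches to different motifs were counted without regard to overlap, and a match is a run of letters, not a shown binding site.

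**Figure D1:**
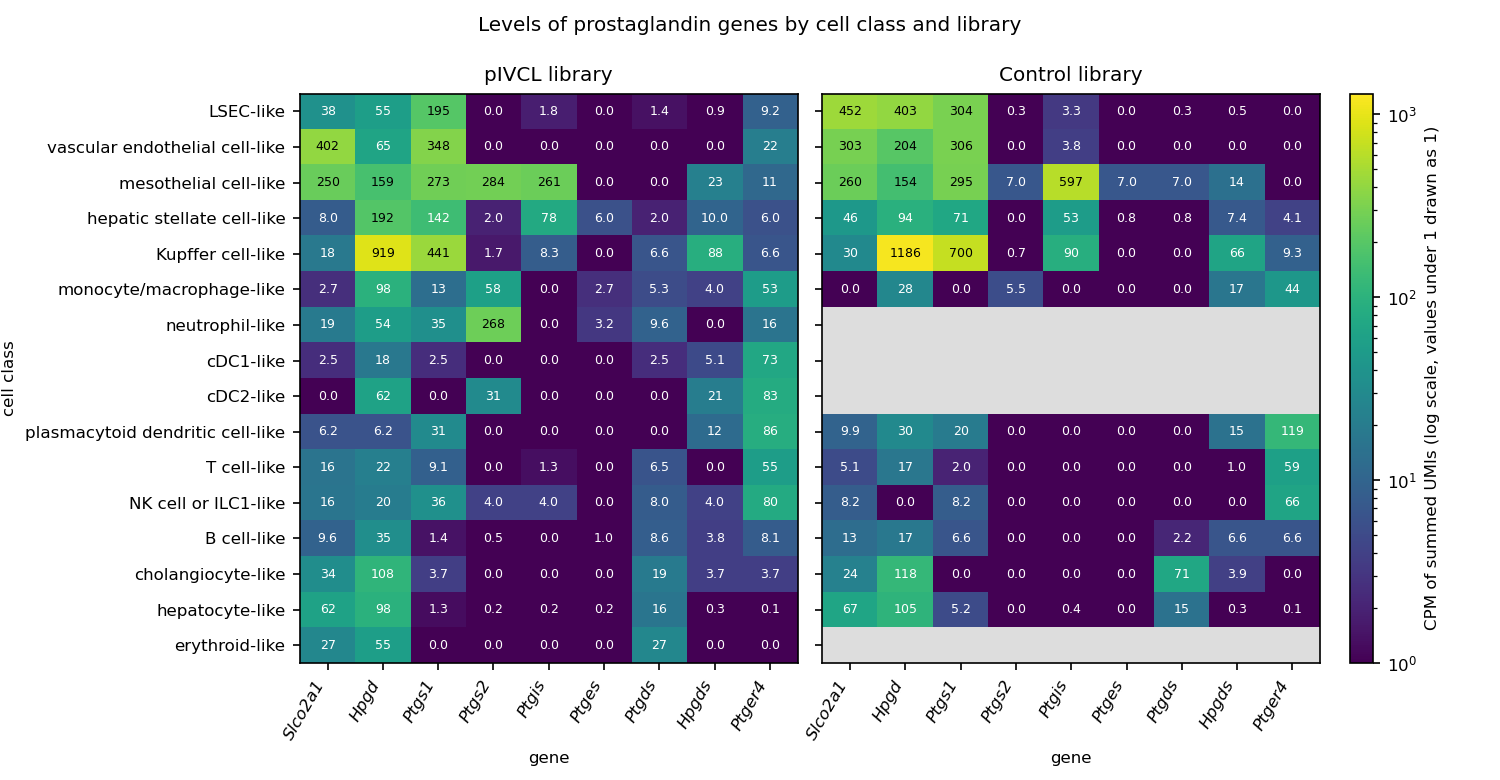
Level of each gene in CPM by cell class, pIVCL library left and Control library right. Colour is on a log scale, and grey marks fewer than 20 cells. Hpgd is highest in Kupffer cell-like cells of both libraries. Ptgs1 is too, but its pIVCL interval there overlaps those of vascular endothelial cell-like and mesothelial cell-like cells. The LSEC-like levels of Slco2a1 and Hpgd are 37.6 and 55.1 CPM in pIVCL against 452 and 403 CPM in Control.

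Ptgs1 (chr2:36230426-36252272, plus strand, GRCm38) encodes cyclooxygenase-1, the enzyme usually present without stimulation. It was highest in Kupffer cell-like cells, with 441 CPM in pIVCL (533 UMIs) and 700 CPM in Control (977 UMIs), a ratio of 0.630 (95% interval 0.566 to 0.701). In LSEC-like cells it stood at 195 CPM in pIVCL (424 UMIs) and 304 CPM in Control (1862 UMIs), a ratio of 0.639 (0.574 to 0.711). Both intervals lay below 1, so Ptgs1 was lower in pIVCL beyond counting error in these 2 kinds of cell. The LSEC-like cells, however, mostly lay in different clusters. The Esm1-led cluster held 192 CPM (173 to 212) in 457 pIVCL and 234 CPM (137 to 375) in 16 Control cells. The Dnase1l3-led cluster held 184 CPM (59.7 to 429) in 7 pIVCL and 318 CPM (303 to 334) in 732 Control cells. These intervals overlapped within each cluster, and cell state and level cannot be told apart. All genes tested in Kupffer cell-like cells had a median ratio of 0.886, relative to which Ptgs1 stood at 0.711, and within the shallower of the 2 Kupffer clusters its ratio was 0.796 with an interval that included 1 (0.624 to 1.02). At 1000 UMIs per cell, which kept 371 pIVCL and 240 Control Kupffer cell-like cells, the Kupffer ratio was 0.829 (0.658 to 1.05). In the middle tertile of dissociation stress the LSEC-like ratio was 0.835 (0.688 to 1.01). Vascular endothelial cell-like cells held 348 CPM (238 to 491) in pIVCL and 306 CPM (261 to 357) in Control. Mesothelial cell-like cells held 273 CPM (175 to 406) and 295 CPM (213 to 399). In pIVCL the Kupffer cell-like interval (404 to 480) overlapped both, so the order there is not set beyond counting error.

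Stellate cells, the vitamin A-storing pericytes of the sinusoid, ran the other way. Ptgs1 had 142 CPM in pIVCL (71 UMIs in 20 of 86 cells) and 70.6 CPM in Control (86 UMIs in 26 of 183 cells), a ratio of 2.01 (1.44 to 2.78). The 9 Kupffer markers summed to 2767 CPM in pIVCL stellate cell-like cells and 1440 CPM in Control ones, with 8 of 9 higher in pIVCL. The portal fibroblast or smooth muscle list summed to 2767 CPM in pIVCL and 875 CPM in Control, while 10 of 12 stellate markers were lower in pIVCL. LSEC markers summed to 2947 CPM in pIVCL and 2298.5 CPM in Control (8 of 11 higher), and dissociation stress genes to 7944 and 5334 CPM (16 of 17 higher). The part of these lists in the Ptgs1 ratio was not tested. Hepatocyte-like cells held little Ptgs1, 1.27 CPM in pIVCL and 5.18 CPM in Control, and at 1000 UMIs per cell 0.157% of pIVCL and 0.822% of Control hepatocyte-like cells had a UMI, near the B cell-like shares of 0% (0 of 937 cells, which allows up to 0.320%) and 0.775%.

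Ptgs2, the inducible cyclooxygenase-2, was sparse: 179 UMIs in pIVCL and 28 in Control over all kept cells. In pIVCL, 84 of them lay in neutrophil-like cells, at 268 CPM, and 34 of those 89 cells held a UMI. Monocyte/macrophage-like cells held another 44 pIVCL UMIs at 58.4 CPM. Only 3 Control cells were neutrophil-like, so the neutrophil level could not be set against Control. Single cells carried much of the rest, since 25 pIVCL UMIs came from 1 of 21 mesothelial cell-like cells and 17 of the 28 Control UMIs from 1 unnamed cell. In LSEC-like cells Ptgs2 had 0 UMIs in pIVCL and 2 in Control.

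Ptgis (chr2:167191805-167240604, minus strand) encodes prostacyclin synthase, which makes the vasodilator prostacyclin. Kupffer cell-like cells held 8.27 CPM in pIVCL (10 UMIs in 9 of 776 cells) and 90.3 CPM in Control (126 UMIs in 68 of 322 cells), a ratio of 0.0916 (0.0429 to 0.174). The log2 ratio with 20 CPM added to each library was -1.96. The same direction held within both Kupffer clusters, at 0.0713 in the shallower one and 0.123 in the deeper one. At 1000 UMIs per cell, 0.809% of pIVCL (3 of 371) and 9.17% of Control Kupffer cell-like cells (22 of 240) had a Ptgis UMI, and no B cell-like cell of either library did. Thinning left out 405 pIVCL and 82 Control Kupffer cell-like cells with fewer than 1000 UMIs. Stellate cell-like cells had 77.9 CPM in pIVCL and 52.6 CPM in Control, and the ratio of 1.48 had an interval that included 1 (0.969 to 2.24). The highest Ptgis level in both libraries was in mesothelial cell-like cells, the lining of the liver surface, with 261 CPM in 21 pIVCL cells and 597 CPM in 44 Control cells, too few to compare. The hepatocyte free RNA list summed to 32730 CPM in pIVCL Kupffer cell-like cells and 13234 CPM in Control ones, and 8 of 9 Kupffer markers were lower in pIVCL; their part in the Kupffer ratios was not tested.

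Ptges and Ptgds make prostaglandin E2 and D2, and Hpgds is the haematopoietic prostaglandin D2 synthase. Ptges had 11 UMIs in pIVCL and 3 in Control in all, too few for a ratio in any kind of cell. Most Ptgds UMIs lay in hepatocyte-like cells, with 16.3 CPM in pIVCL (283 UMIs) and 15.1 CPM in Control (108 UMIs), and the ratio of 1.08 had an interval of 0.864 to 1.36. Its highest Control level was in cholangiocyte-like cells, the lining of the bile ducts, with 18.7 CPM in 57 pIVCL cells (5 UMIs) and 70.9 CPM in 35 Control cells (18 UMIs, 42.0 to 112), too few to compare. Hpgds was mostly in Kupffer cell-like cells, at 88.5 CPM in pIVCL (107 UMIs) and 65.9 CPM in Control (92 UMIs), a ratio of 1.34 (1.01 to 1.79). That interval barely cleared 1, and the clusters differed: the deeper Kupffer cluster had 140 CPM in pIVCL and 70.7 CPM in Control, a ratio of 1.98 (1.44 to 2.73), while the shallower one had 38.9 and 46.7 CPM, a ratio of 0.833 (0.408 to 1.78).

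Slco2a1 (chr9:102988712-103096002, plus strand, GRCm38) encodes the prostaglandin transporter, which takes prostaglandins into the cell. The start of this span lies before the RefSeq start used for the promoter (gene start minus RefSeq start, -19775 bases). The promoter shown therefore lies inside the span and does not adjoin its start. LSEC-like cells held 37.6 CPM in pIVCL (82 UMIs in 49 of 557 cells) and 452 CPM in Control (2764 UMIs in 703 of 963 cells). The ratio was 0.0833 (0.0660 to 0.104), a level 12.0-fold lower in pIVCL, and the log2 ratio with 20 CPM added was -3.03. At 1000 UMIs per cell, 3.89% of pIVCL LSEC-like cells (20 of 514) and 32.4% of Control ones (291 of 899) had a UMI, against B cell-like shares of 0.747% in pIVCL and 0.775% in Control. Control LSEC-like cells ranked highest of 12 kinds of cell, whereas pIVCL LSEC-like cells ranked 4 of 16, after vascular endothelial cell-like, mesothelial cell-like and hepatocyte-like cells.

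Within the cluster that held most pIVCL LSEC-like cells, Slco2a1 was 32.1 CPM in 457 pIVCL cells and 124 CPM in 16 Control cells (9 UMIs). Within the cluster that held most Control ones, it was 404 CPM in 7 pIVCL cells (11 UMIs) and 468 CPM in 732 Control cells. The LSEC-like ratio thus sets apart cells that mostly lay in different clusters, and cell state and level cannot be told apart here.

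Outside LSEC-like cells the values were mixed. Vascular endothelial cell-like cells held 402 CPM (283 to 555) in 21 pIVCL cells and 303 CPM (257 to 353) in 60 Control cells, with overlapping intervals and too few pIVCL cells to compare. Hepatocyte-like cells held 61.9 CPM in pIVCL (1073 UMIs) and 67.4 CPM in Control (482 UMIs), with a ratio of 0.919 (0.824 to 1.03). Stellate cell-like cells had 4 UMIs in 2 pIVCL cells, at 7.99 CPM, and 56 UMIs in 16 Control cells, at 46.0 CPM, a ratio of 0.174 (0.0457 to 0.470). At 1000 UMIs per cell their shares were 0% in pIVCL (0 of 69 cells, which allows up to 4.35%) and 1.85% in Control (3 of 162 cells, 0.384 to 5.32%). These shares did not differ beyond counting error, and the Control interval overlapped the Control B cell-like one (0.775%, 0.0196 to 4.24%). The T cell-like ratio of 3.06 (1.00 to 11.1) rested on 12 pIVCL and 5 Control UMIs, and at 1000 UMIs per cell the T cell-like shares, 0.348% in pIVCL and 0% in Control (0 of 184 cells, which allows up to 1.63%), were at the B cell-like background.

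Hpgd (chr8:56294585-56321043, plus strand) encodes the dehydrogenase that inactivates prostaglandins. Kupffer cell-like cells had the highest level in both libraries, 919 CPM in pIVCL (1111 UMIs) and 1186 CPM in Control (1655 UMIs), a ratio of 0.775 (0.718 to 0.837), or 0.874 relative to the median of all genes tested there. LSEC-like cells held 55.1 CPM in pIVCL (120 UMIs in 68 cells) and 403 CPM in Control (2467 UMIs in 642 cells). Their ratio was 0.137 (0.113 to 0.164) and the log2 ratio with 20 CPM added was -2.50. In the Esm1-led cluster Hpgd was 51.0 CPM in 457 pIVCL cells and 179 CPM (95.5 to 307) in 16 Control cells. In the Dnase1l3-led cluster it was 73.5 CPM (2 UMIs, 8.91 to 266) in 7 pIVCL cells and 402 CPM in 732 Control cells. As for Slco2a1, cell state and level cannot be told apart. At 1000 UMIs per cell the share with a UMI was 3.31% in pIVCL LSEC-like and 3.74% in pIVCL B cell-like cells, and 29.6% in Control LSEC-like and 2.33% in Control B cell-like cells. Without thinning the pIVCL shares were 12.2% in LSEC-like and 6.25% in B cell-like cells, and the pIVCL levels 55.1 CPM (45.7 to 65.8) and 34.9 CPM (27.4 to 43.9), so the thinned share and the level differ on whether the pIVCL signal exceeds background. Stellate cell-like cells ran the other way, with 192 CPM in pIVCL (96 UMIs) and 94.4 CPM in Control (115 UMIs), a ratio of 2.03 (1.53 to 2.68), beside the higher Kupffer marker sum given for Ptgs1. Hepatocyte-like cells held 98.03 CPM in pIVCL and 105 CPM in Control, a ratio of 0.934 (0.857 to 1.02). Vascular endothelial cell-like cells held 65.2 CPM (23.9 to 142) in 21 pIVCL cells and 204 CPM (167 to 246) in 60 Control cells. Their shares at 1000 UMIs per cell were 9.52% in pIVCL and 8.33% in Control, and the pIVCL cells were too few to compare.

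**Figure D2:**
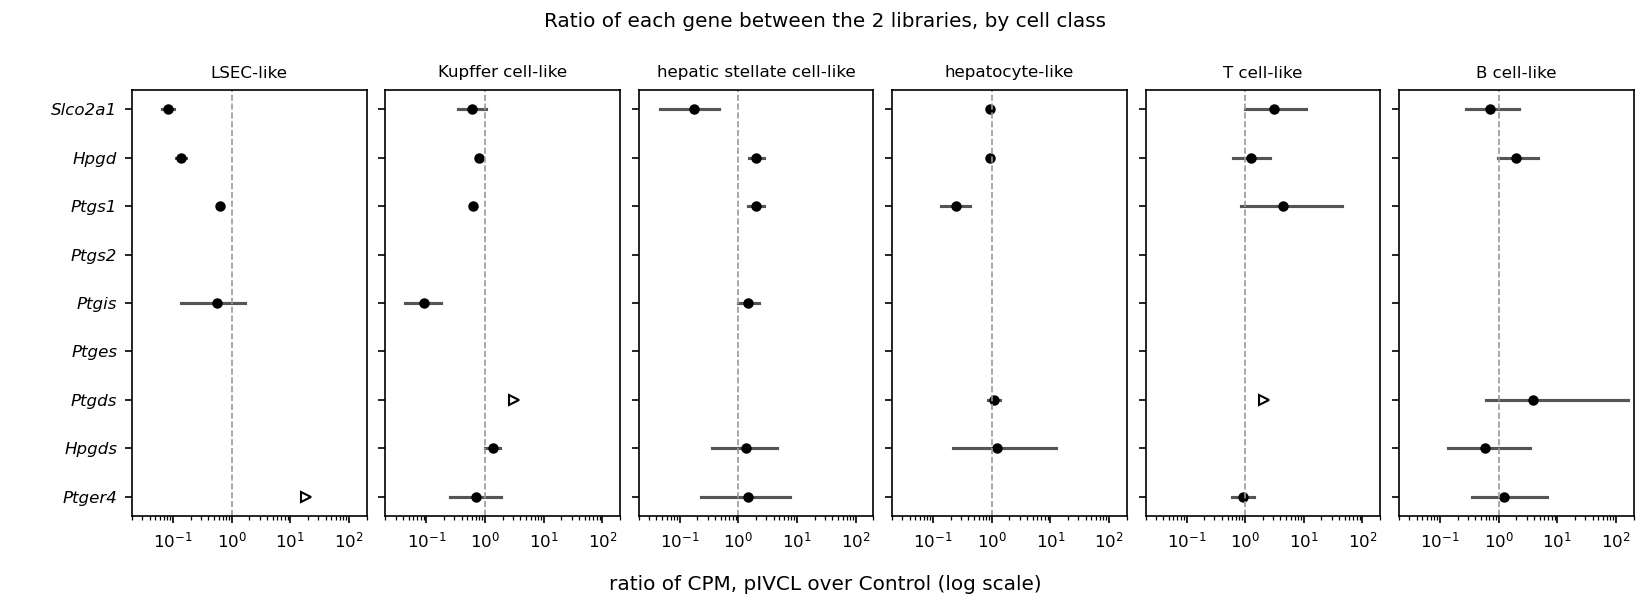
Ratio of each gene, pIVCL over Control, on a log axis in the 6 kinds of cell compared. Points are ratios of CPM and bars 95% counting intervals. Open triangles are ratios with a Control count of 0 set to 3 UMIs, without an interval, and a gap marks both libraries at or under 3 UMIs. Slco2a1 and Hpgd in LSEC-like cells lie at 0.0833 and 0.137.

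Among genes with at least 20 summed UMIs, 5 of the 9 could be read in LSEC-like cells and 2 of them, Slco2a1 and Hpgd, were lower in pIVCL by at least 2-fold on the log2(CPM + 20) scale, where 1.2% of 11257 genes were that much lower, 2.38% higher and 3.58% either. In Kupffer cell-like cells 1 of 6, Ptgis, was lower, against 0.442% of 9058 genes lower, 2.61% higher and 3.05% either. In stellate cell-like cells 1 of 4, Slco2a1, was lower, against 1.53% of 8980 genes lower, 2.14% higher and 3.66% either. None of 4 passed in hepatocyte-like cells, where 0.428% of all genes were lower, 0.401% higher and 0.829% either. None of 3 passed in B cell-like cells, where 0.176% were lower, 1.2% higher and 1.38% either, and none of 2 in T cell-like cells, where 0.546% were lower, 2.71% higher and 3.26% either. The 9 genes were chosen with these contrasts known, so nothing is read from the counts.

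Ptger4 encodes a prostaglandin E2 receptor. T cell-like cells held 54.7 CPM in pIVCL (42 UMIs) and 59.3 CPM in Control (58 UMIs), a ratio of 0.922 (0.605 to 1.40). Plasmacytoid dendritic cell-like cells held 86.5 CPM in pIVCL and 119 CPM in Control, and NK cell or ILC1-like cells 80.2 and 65.5 CPM, with overlapping intervals. LSEC-like cells held 20 UMIs in 17 pIVCL cells, at 9.18 CPM (5.61 to 14.2), and 0 in Control, where the interval reached 0.603 CPM. With Control set to a floor of 3 UMIs the ratio was 18.7, a value that leaves out the counting error of the pIVCL UMIs. At 1000 UMIs per cell only 0.195% of pIVCL LSEC-like cells had a Ptger4 UMI, under the 0.747% of pIVCL B cell-like cells. Ptger4 overlaps the coding gene Ttc33 on the opposite strand.

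**Figure D3:**
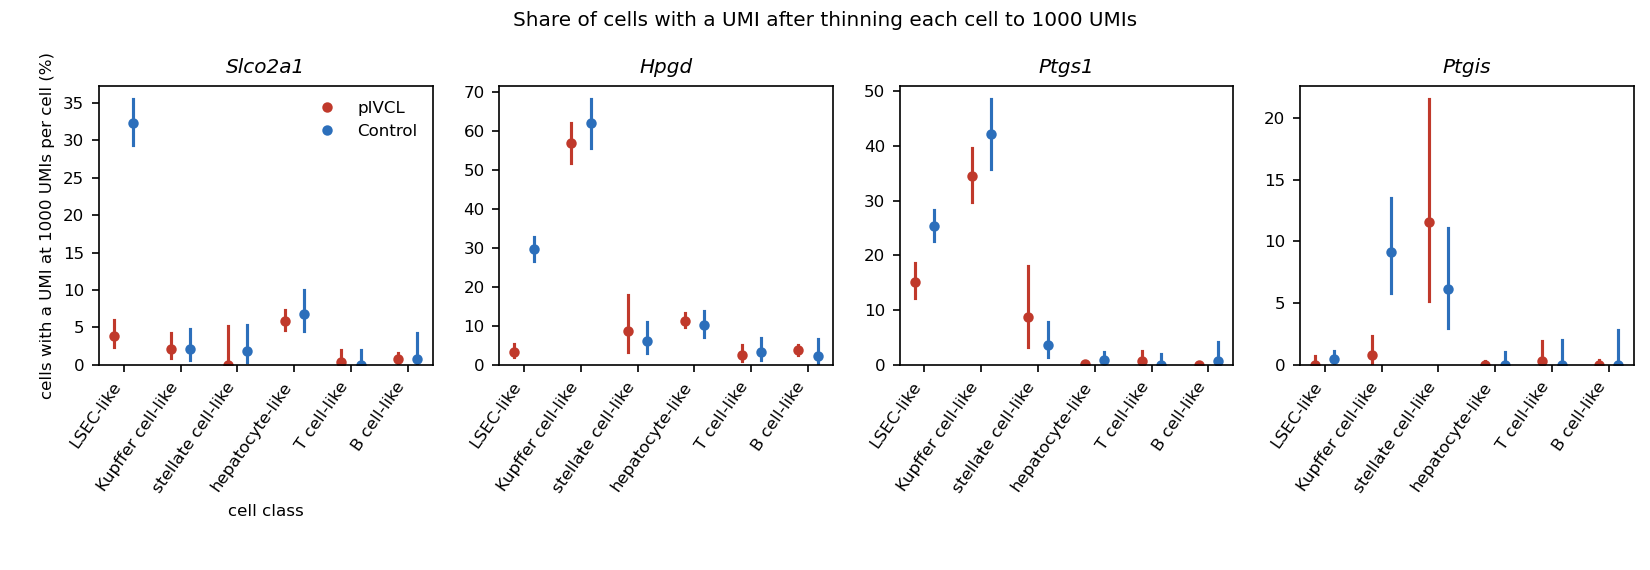
Share of cells with a UMI, in percent, after each cell was thinned to 1000 UMIs, by cell class for 4 genes, pIVCL left of Control. Points are shares and bars exact binomial 95% intervals. Slco2a1 is seen in 3.89% of pIVCL and 32.4% of Control LSEC-like cells.

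Several marker sums also differed between the LSEC-like cells of the 2 libraries, and their part in the LSEC-like ratios was not tested. Dissociation stress genes summed to 12143 CPM in pIVCL LSEC-like cells and 5694.5 CPM in Control ones, with 17 of 17 higher. The hepatocyte free RNA list summed to 11932 CPM in pIVCL and 7834 CPM in Control, with 14 of 15 higher. Kupffer markers summed to 662 and 55.9 CPM (9 of 9 higher), monocyte/macrophage markers to 559 and 75.2 CPM (10 of 10 higher), and the 11 LSEC markers to 12824 and 21010 CPM (9 lower). Within the lowest, middle and highest tertile of the stress share the Slco2a1 ratio was 0.0833, 0.161 and 0.0524, and the Hpgd ratio 0.174, 0.188 and 0.108. A first attempt to use only LSEC-like cells without any vascular, lymphatic or leukocyte marker UMI left 13 pIVCL and 26 Control cells, with 0 and 1 Slco2a1 UMIs, and gave an Hpgd ratio of 0.174 whose interval included 1 (0.00413 to 1.13). A looser rule, added after that, removed only cells with a leukocyte marker UMI and left 193 and 537 cells, where Slco2a1 stood at 0.0700 (0.0414 to 0.111), Hpgd at 0.0255 (0.00933 to 0.0556) and Ptgs1 at 0.511 (0.407 to 0.634).

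LSECs differ along the sinusoid between portal and central vein. Cells with more UMIs of an 8-gene pericentral list than of an 8-gene periportal list lean pericentral, a range of a per-cell count and not a type: 74 pericentral and 434 periportal cells in pIVCL, 354 and 548 in Control, with 113 pIVCL and 130 Control cells within 1 UMI of the boundary. In pIVCL, Slco2a1 was 75.1 CPM in pericentral-leaning and 29.9 CPM in periportal-leaning cells, a ratio of 2.51 (1.52 to 4.05), which became 1.30 (0.628 to 3.13) when Fabp4 and Cd36 joined the pericentral list. In Control it was 565 and 378 CPM, a ratio of 1.49 (1.38 to 1.61). Ptgs1 leaned the same way, 282 and 169 CPM in pIVCL (1.67, 1.32 to 2.09) and 460 and 206 CPM in Control (2.24, 2.04 to 2.46). Hpgd leaned periportal in Control, with 362 and 431 CPM (0.840, 0.771 to 0.913), and its pIVCL ratio of 1.33 had an interval that included 1 (0.798 to 2.14). Between libraries, Slco2a1 was lower in pIVCL in pericentral-leaning (0.133) and periportal-leaning cells (0.0791), and Hpgd likewise (0.170 and 0.108).

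**Figure D4:**
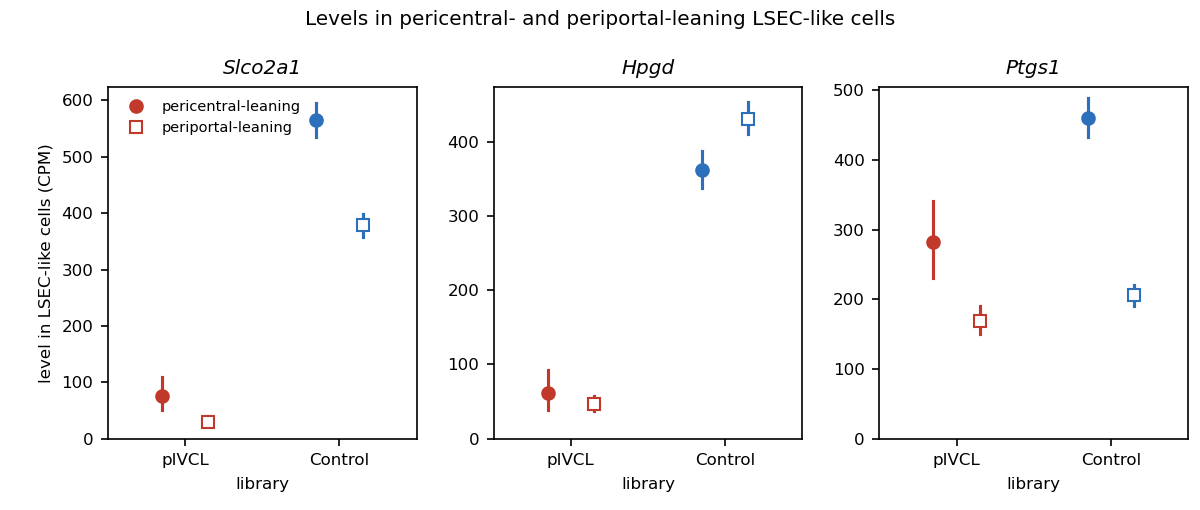
Level in CPM of Slco2a1, Hpgd and Ptgs1 in pericentral-leaning (filled circles) and periportal-leaning (open squares) LSEC-like cells, pIVCL left and Control right. Bars are exact Poisson 95% intervals. Slco2a1 is higher in the pericentral-leaning cells of both libraries, 75.1 against 29.9 CPM in pIVCL and 565 against 378 CPM in Control.

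Within single LSEC-like cells at 1000 UMIs, Slco2a1 and Hpgd were seen together in 2 of 514 pIVCL cells and 87 of 899 Control cells. The Control share of 9.68% was close to the 9.58% given by the product of the 2 genes' shares. In Kupffer cell-like cells Hpgd and Ptgs1 were seen together in 83 of 371 pIVCL cells (22.4%, product 19.6%) and 65 of 240 Control cells (27.1%, product 26.1%).

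Of the other genes of the pathway, 51 of 53 listed symbols were found. In LSEC-like cells 26 could be read and 3 were lower in pIVCL by at least 2-fold, against 1.2% of all genes lower and 3.58% either. Tbxa2r, the thromboxane receptor, had 23.9 CPM in pIVCL and 126 CPM in Control, a log2 ratio of -1.73. Ltc4s, leukotriene C4 synthase, had 1.38 and 43.5 CPM (-1.57), and Alox12, a lipoxygenase, 4.13 and 33.5 CPM (-1.15). The median log2 ratio of the 26 was 0.00, as for all genes there. In Kupffer cell-like cells 24 could be read and 2 were lower in pIVCL by at least 2-fold, against 0.442% of all genes lower and 3.05% either. Alox5ap, which hands arachidonic acid to 5-lipoxygenase, had 72.0 CPM in pIVCL and 244 CPM in Control (-1.52), and Ltc4s 19.9 and 65.2 CPM (-1.10). Ggt5 was the only 1 of 23 in stellate cell-like cells, at 55.9 CPM in pIVCL and 141 CPM in Control (-1.09). Of all genes there, 1.53% were lower and 3.66% either. Of 12 in T cell-like cells only Ltb4r1, a leukotriene B4 receptor, passed, on 3 pIVCL and 28 Control UMIs, against 0.546% of all genes lower and 3.26% either. None of 19 in hepatocyte-like and 13 in B cell-like cells passed, where 0.829% and 1.38% of all genes did. The lists were chosen with earlier results of these data known, so nothing is read from these counts.

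**Figure D5:**
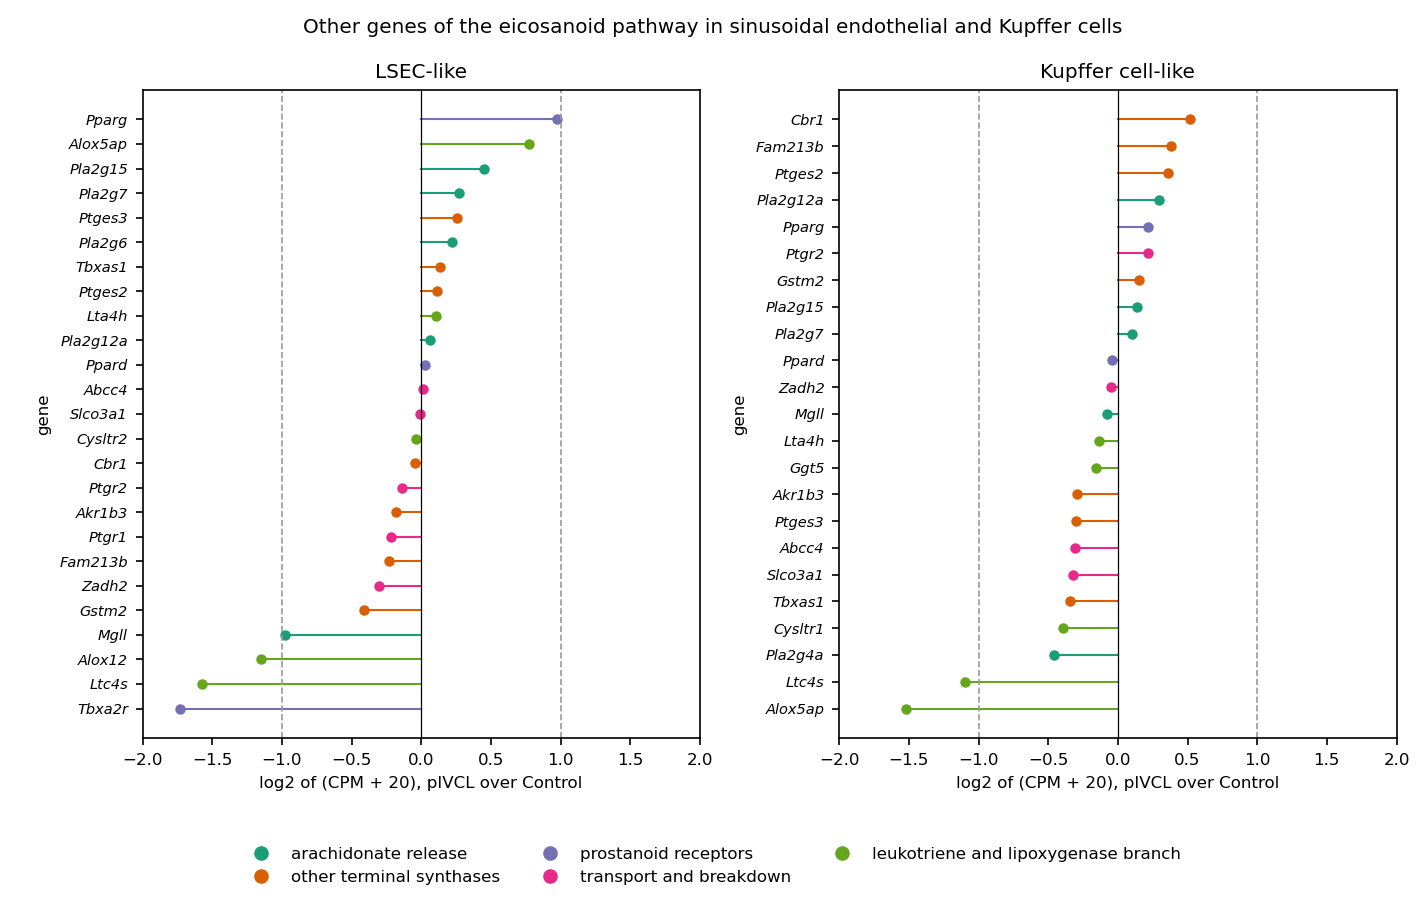
Log2 of (CPM + 20), pIVCL over Control, for other pathway genes with at least 20 summed UMIs in LSEC-like (left) and Kupffer cell-like cells (right). Each point is 1 gene, colour gives its list and dashed lines mark a 2-fold difference. Tbxa2r at -1.73 is lowest in LSEC-like cells and Alox5ap at -1.52 lowest in Kupffer cell-like cells.

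The genes most alike in level were ranked by Pearson r over 12 points (6 kinds of cell in 2 libraries, sharing library and depth) among 6762 genes. Slco2a1 was most like Dhx32 (0.963), Car8 (0.954) and Ces2g (0.938). Hpgd was most like Fgd4 (0.966), Slc40a1 (0.947) and Slc48a1 (0.946), and Ptgs1 like Clec1b (0.993), Acvrl1 (0.987) and Tlr2 (0.985). The nearest to Ptgis was Pmp22 (0.9304), to Ptgds Otc (0.989), to Hpgds F630028O10Rik (0.994) and to Ptger4 Ptpn22 (0.977). Ptgs2 had at most 3 UMIs in each of the 12 points, so no gene is named for it. These are descriptions over few points and carry no test.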

How the data were processed

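The authors deposited UMI counts per gene and barcode for 2 libraries, whole numbers with no normalization. Per the submitters' processing notes, Cell Ranger 3.0.2 and the mm10 build were used. The files held 7042 pIVCL and 3574 Control barcodes (38154000 and 24637681 UMIs). Barcodes with at least 500 UMIs, 200 genes and at most 25% mitochondrial UMIs were kept. Scrublet in scanpy 1.11.5 called 3 pIVCL and 5 Control doublets, under 0.5%, so it did not work and doublets remain. Cells were clustered by Leiden (leidenalg 0.10.2, resolution 1, 20 neighbours, 30 components, 2000 variable genes).

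Clusters were named by mean log marker difference. A z-scored version was tried first and dropped because it named a shallow endothelial cluster platelet, and mixed clusters were then split once more. Both steps, the looser leukocyte rule and the wider promoter window were chosen after seeing the data. In all, 12 of 56 clusters stayed unnamed.

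Levels have exact Poisson, shares Clopper-Pearson and ratios conditional binomial 95% intervals. A count of 0 has a floor of 3 UMIs. No test was possible with a lone library in each group. Log2 ratios add 20 CPM, which understates low genes. The members and lists were chosen with earlier results of these data known. Genes named are all 9 members, pathway genes past 2-fold with at least 30 UMIs, and the 3 most alike per member; any other was chosen after its values were seen. A pathway gene that met this rule is counted but not reported or plotted here. Coordinates are GRCm38, with promoters from RefSeq. Ratio calculations were checked on counts simulated from LSEC-like sums, without spread between cells or libraries. That check therefore covers counting error only.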

Additional observations from a re-analysis of the deposited data

Results flagged for a closer look

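Ratios, pIVCL over Control, whose counting intervals excluded 1 in some kinds of cell and that stood at other values in others drew attention, and with 1 library per group the difference between cell kinds was not tested. Slco2a1 stood at 0.0833 in LSEC-like and 0.174 in stellate cell-like cells but 3.06 in T cell-like cells, where it rested on 12 pIVCL and 5 Control UMIs. Its stellate cell-like value rested on 4 pIVCL and 56 Control UMIs, and the thinned shares there did not differ beyond counting error. Hpgd stood at 0.137 in LSEC-like and 0.775 in Kupffer cell-like cells but 2.03 in stellate cell-like cells. There the share of cells with a Hpgd UMI was 20.9% in pIVCL and 21.9% in Control. Ptgs1 stood at 0.639 in LSEC-like, 0.63 in Kupffer cell-like and 0.245 in hepatocyte-like cells but 2.01 in stellate cell-like cells, and its hepatocyte-like value rested on 22 pIVCL and 37 Control UMIs.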

How the results depend on the processing

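No paired analysis was possible because each group held 1 library and no result came from a test. The main limits are the lone library per group, shallower pIVCL cells and rebuilt cell names. Over its alternatives the Slco2a1 ratio in LSEC-like cells ran from 0.0524 to 0.161 (the highest and middle stress tertile), and under the strictest marker rule it could not be computed, since pIVCL had 0 UMIs and Control 1. The Hpgd ratio in LSEC-like cells ran from 0.0255 (no leukocyte marker UMI) to 0.188 (middle stress tertile), with 0.0984 at 10% mitochondrial UMIs, 0.11 at 1000 UMIs or more, 0.085 with classes set per cell, 0.087 in thinned cells, 0.174 both without any other marker UMI and in the lowest stress tertile, and 0.108 in the highest. Ptgs1 in LSEC-like cells was 0.54 thinned, 0.511 without leukocyte marker UMIs and 0.835 (0.688 to 1.01) in the middle tertile. In Kupffer cell-like cells Hpgd was 0.643 at resolution 2 and 0.874 under median-of-ratios scaling, and Ptgs1 0.544 and 0.711 under these, 0.829 thinned, and 0.796 and 0.75 in the 2 clusters alone. Hpgds there was 2.86 thinned, 1.98 in the deeper cluster and reversed to 0.833 in the shallower one; its interval also included 1 at resolution 2 (1.12), at 10% mitochondrial UMIs (1.23), with classes set per cell (1.26) and with pathway genes left in for clustering (1.31). Ptgis there stayed between 0.0713 and 0.123. Ptgds in hepatocyte-like cells was 2.72 thinned (0.655 to 24), Ptger4 in T cell-like cells 1.7 in 1 cluster alone (0.998 to 2.81), and the pIVCL pericentral over periportal ratio of Slco2a1 1.3 with Fabp4 and Cd36. With 5 or 50 CPM added, genes past 2-fold numbered 950 or 195 in LSEC-like (403 at 20 CPM), 696 or 135 in Kupffer cell-like (276), 809 or 139 in stellate cell-like (329), 280 or 56 in hepatocyte-like (93), 662 or 113 in T cell-like (245) and 601 or 40 in B cell-like cells (117). In LSEC-like cells 6 of 26 other pathway genes passed with 5 CPM (4 lower, 2 higher) and 1 with 50 CPM, against 3 at 20 CPM, and with 5 CPM Ptger4 also passed as higher. In stellate cell-like cells 4 of 23 passed with 5 CPM (2 lower, 2 higher) and 0 with 50 CPM, against 1, and Slco2a1 no longer passed with 50 CPM. With 5 CPM, 415 genes were lower and 394 higher in stellate cell-like cells, against 137 and 192, and 225 and 471 in Kupffer cell-like cells, against 40 and 236. The cause of these shifts was not tested.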
